A study of Rattus norvegicus with 23 samples.

Results

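Expression of astrocyte genes and glial glutamate transporters was followed across the dorsal striatum of 23 rats in 4 of the 32552 genes counted: Gfap (ENSRNOG00000002919), S100b (ENSRNOG00000001295), Slc1a2 (ENSRNOG00000005479) and Slc1a3 (ENSRNOG00000016163). Each was taken by its Ensembl identifier, and only where the chromosome listed with the identifier was the one on which the gene lies (10, 20, 3 and 2 in this order). The rats were wild type adult Long Evans males, with 1 bulk RNA library from the dorsal striatum of each. Control rats (CT, n = 6) self-administered saline and received no footshocks. All other rats self-administered methamphetamine (METH) at 0.1 mg/kg per infusion for 22 days, then took it for 8 days against footshocks of 0.18 mA at first and 0.36 mA at the end. They went through 15 days of abstinence, 12 further days of METH self-administration and 3 days of 0.30 mA footshocks. The study's methods place these footshocks in the last 3 of the 12 days, whereas its results describe them as coming afterwards. A second abstinence followed, and lever pressing for drug cues was tested on days 1 and 15 of both. The striatum was taken 1 day after the last of these tests, not straight after the footshocks. Always shock-resistant rats (ASR, n = 6) kept taking METH under both footshock phases, always sensitive rats (AS, n = 6) cut their intake in both, and delayed shock-resistant rats (DSR, n = 5) cut it only in the first. The METH groups were thus formed by behaviour and not by assignment, and no group received METH without footshocks or footshocks without METH, so that the effects of drug and shock cannot be told apart in a comparison with CT rats. Each rat has a code that starts with Grp7 or Grp8, which neither the labels nor the methods explain, and values are given within each code beside the pooled ones. The Grp7 rats were 4 CT, 3 ASR, 2 DSR and 4 AS rats, and the Grp8 rats were 2 CT, 3 ASR, 3 DSR and 2 AS rats.

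Astrocytes surround the synapses of the striatum, where cortical and thalamic inputs release glutamate onto medium spiny neurons. Gfap encodes glial fibrillary acidic protein, the intermediate filament of the astrocyte cytoskeleton, whose level rises when astrocytes react to injury or toxicants, among them neurotoxic doses of METH. S100b encodes a small calcium-binding protein of astrocytes that is also released from them. Slc1a2 and Slc1a3 encode the glutamate transporters GLT-1 (EAAT2) and GLAST (EAAT1), which clear glutamate from the extracellular space, GLT-1 being the main transporter of the adult forebrain. Changes in glial glutamate uptake are widely studied in models of drug seeking, mostly in the nucleus accumbens. In bulk RNA, fewer astrocytes and less of a transcript per astrocyte cannot be told apart.

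The libraries held from 18967015 to 28137676 counts, mitochondrial genes took from 11.6% to 19.6% of them, and the TMM scaling factors lay between 0.930 and 1.05. Every DSR library (24588332 counts or more) was deeper than every AS library (24019678 or fewer) and every CT library (23248971 or fewer). Depth and group therefore cannot be told apart in the comparisons of DSR with AS and with CT rats. The highest mitochondrial share was that of AS rat Grp7-R1, and the other 22 libraries were at 15.9% or lower. All 4 genes were well above the range where counting error matters. Gfap had from 11424 to 43248 counts per library, S100b from 25063 to 44607, Slc1a3 from 13226 to 19885 and Slc1a2 from 1972 to 4488, the lowest of which carries a counting error of 2.25%. The files give genes by identifier without symbols, and markers of neurons, oligodendrocytes, microglia and blood vessels were not analysed here.

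On the Rnor6.0 genome, as listed with the counts, Gfap is a minus-strand gene at chr10:90990762-90999506 with 10 separate exon blocks of 3661 bases in all. S100b, also on the minus strand, is at chr20:13130636-13142856 with 3 exon blocks of 1484 bases. Slc1a3, on the same strand, is at chr2:57860834-57935363 with 10 exon blocks of 3982 bases. Slc1a2, a plus-strand gene, is at chr3:92640752-92665644 with only 5 exon blocks of 882 bases. No other counted gene overlaps any of the 4. The map of the counted exons shows how short the Slc1a2 model is beside that of Slc1a3. Its span of 24893 bases is 19.1% of the 130337 bases that RefSeq gives to Slc1a2 on the GRCr8 genome, against 99.2% for Slc1a3, 101% for Gfap and 139% for S100b. The Slc1a2 values below therefore count reads in a part of the gene, and reads from exons outside that part do not enter them.

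**Figure D1:**
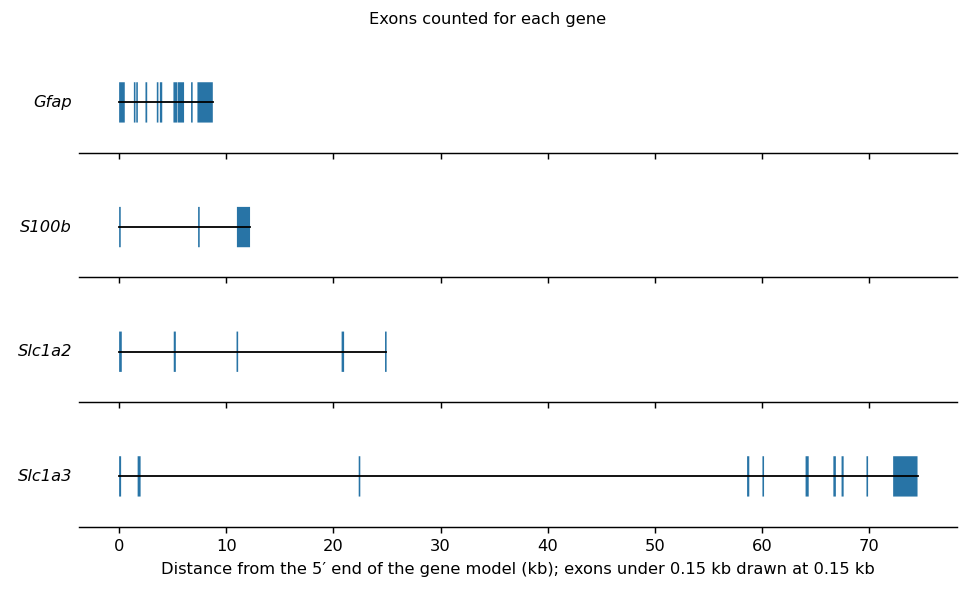
Exons counted for the 4 genes, drawn to scale from the 5′ end of each gene model in kb (horizontal axis), with blue blocks for merged exons, the shortest of them widened to be visible, and a line for the span of the model. Slc1a2 is represented by 5 short blocks, whereas the models of Gfap, S100b and Slc1a3 end in a long block at the 3′ end.

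Gfap and S100b were the most strongly correlated pair of the 4 across rats, as given further on, so the sequences before their transcription starts are shown. They are the 250 bases upstream of the RefSeq start of each gene on GRCr8, 5′ to 3′ on the strand of the gene, from windows found for 4 of 4 symbols. Gfap is at chr10:88361662-88361911 and S100b at chr20:12381082-12381331, both on the minus strand. Capitals mark matches on either strand to TATAAA (a box of core promoters), TTCNNNGAA (STAT), TGANTCA (AP-1) or TTGGC (core of the nuclear factor I site, a family with a known role in astrocyte genes).
Gfap: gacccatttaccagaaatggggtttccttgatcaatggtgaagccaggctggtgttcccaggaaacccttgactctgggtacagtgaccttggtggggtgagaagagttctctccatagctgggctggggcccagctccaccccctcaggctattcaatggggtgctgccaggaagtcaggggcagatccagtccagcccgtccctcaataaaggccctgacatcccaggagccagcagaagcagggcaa
S100b: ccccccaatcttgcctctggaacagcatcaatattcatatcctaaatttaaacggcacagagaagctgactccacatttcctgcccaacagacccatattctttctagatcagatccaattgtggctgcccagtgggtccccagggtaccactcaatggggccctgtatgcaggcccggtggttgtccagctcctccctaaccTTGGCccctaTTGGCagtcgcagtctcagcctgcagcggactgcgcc
The Gfap window held none of these letters in this form, and the S100b window held the nuclear factor I core at 2 places, which begin 47 and 37 bases before the start. That core occurs in 40.3% of 33469 windows of the same length, TATAAA in 12.9%, TTCNNNGAA in 7.67% and TGANTCA in 6.34%. Of the transporters, RefSeq lists 2 starts for Slc1a2 and 3 for Slc1a3. The first Slc1a2 window is rich in GC (71.2%, with 33 CpG dinucleotides) and holds none of the 4 motifs, against 57.6% GC with 1 CpG for Gfap and 54.8% with 5 for S100b. The second Slc1a2 window, at 45.6% GC with 2 CpG dinucleotides, holds the nuclear factor I core once, on the minus strand and beginning 99 bases before the start. Each Slc1a3 window holds the nuclear factor I core once, on the minus strand. The 3 windows overlap, and this is the same stretch in each, beginning 84, 95 and 105 bases before the 3 starts. These matches are letters in a window and no measurement of binding.

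Levels between the genes were compared per length, as TPM (counts divided by the exon length and scaled to the same sum in each library). S100b was the highest of the 4 in 23 of 23 rats, at 1763 ± 214 TPM (SD, n = 23), and lay above 99.9% of all counted genes by mean TPM. Gfap followed at 519 ± 181, Slc1a3 at 322 ± 20.3 and Slc1a2 at 240.2 ± 40.0 TPM. This order held in 19 rats. In 3 others Slc1a3 was above Gfap, and in 1 rat, DSR Grp7-R7, the order was S100b, Slc1a2, Slc1a3, Gfap. The neighbours Gfap and Slc1a3 are thus separate in their means but not in each rat, and the place of Slc1a2 rests on its short model.

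The genes differed in how much they varied between rats of 1 group. From here on, levels are given as CPM (counts relative to the TMM-scaled library size), a scale on which 1 gene can be compared between rats. Gfap had the widest spread, with a coefficient of variation from 18.3% in AS to 46.7% in DSR rats. Slc1a3 had the narrowest, from 3.98% in ASR to 8.64% in AS rats. The biological coefficient of variation that edgeR estimated over all rats was 0.295 for Gfap, which is above that of 86.7% of the 16275 genes tested, 0.132 for Slc1a2, 0.115 for S100b and 0.0787 for Slc1a3. The median gene had 0.129.

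Gfap, the filament gene, was at 520 CPM in the lowest, 911 in the median and 1547 in the highest CT rat. ASR rats had 726, 988 and 1474 CPM as lowest, median and highest value, and AS rats 1109, 1417 and 1817. The 5 DSR rats had 447, 618, 636, 916 and 1406 CPM. All 6 AS rats lay at or above 1109 CPM, 4 of 5 DSR rats and 5 of 6 ASR rats lay below every AS rat, and 1 rat of each (DSR Grp8-L9 and ASR Grp7-R4) overlapped the AS range. The means were 1420.3 ± 259 CPM in AS (SD, n = 6), 1016 ± 247 in ASR (n = 6), 988 ± 369 in CT (n = 6) and 805 ± 376 in DSR rats (n = 5). In this order the neighbours ASR, CT and DSR did not differ beyond their spread.

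S100b, the calcium-binding protein, showed the same order at the top and bottom with a smaller range. CT rats had 1107, 1438 and 1677 CPM as lowest, median and highest value, ASR rats 1292, 1439.9 and 1559, and AS rats 1392, 1638 and 1874. The DSR rats had 1172, 1269, 1332, 1357 and 1569 CPM. Of the 6 AS rats 5 were above every DSR rat and 4 of the 5 DSR rats below every AS rat, and the groups overlapped through DSR rat Grp8-L9 and AS rat Grp8-L5. The means were 1650.1 ± 169 CPM in AS (SD, n = 6), 1448 ± 100.4 in ASR (n = 6), 1431 ± 212 in CT (n = 6) and 1339.8 ± 147 in DSR rats (n = 5), and those of ASR and CT rats differed by less than their spread.

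Slc1a2, the transporter GLT-1, had another order, with DSR rats at the top. Its values were 125, 128, 128, 143 and 176 CPM in the 5 DSR rats. CT rats ranged from 93.9 to 126 CPM with a median of 112, ASR rats from 103 to 147 with a median of 111, and AS rats from 93.5 to 143 with a median of 105. Below every DSR rat were 5 of 6 AS rats and 5 of 6 CT rats, and the overlap came from CT rat Grp7-L7 and AS rat Grp7-R1. The means were 139.9 ± 21.2 CPM in DSR (SD, n = 5), 118 ± 17.5 in ASR (n = 6), 112 ± 10.6 in CT (n = 6) and 110.5 ± 17.8 in AS rats (n = 6), and the last 3 did not differ beyond their spread. AS rat Grp7-R1 was also the library with the highest mitochondrial share, whose part in these values is given below by leaving it out.

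Slc1a3, the transporter GLAST, stayed within a narrow band in all groups. The DSR rats had 709.9, 719.9, 743, 769.5 and 796 CPM. CT rats ranged from 649 to 806 CPM with a median of 707, ASR rats from 650.5 to 725 with a median of 703, and AS rats from 685 to 858 with a median of 709. All 4 groups overlapped, and their means (708 ± 57.4 in CT, 698 ± 27.8 in ASR, 748 ± 35.3 in DSR and 735 ± 63.5 in AS rats, SD) lay within 1 SD of their neighbours.

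**Figure D2:**
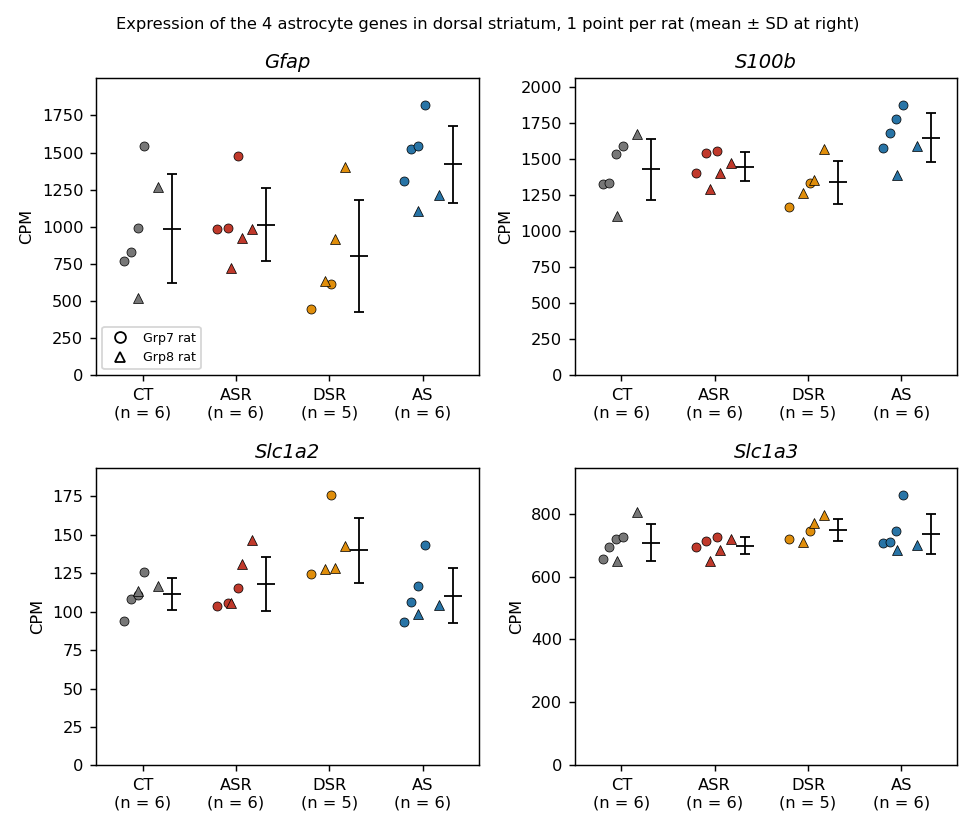
CPM of the 4 genes (vertical axes, from 0) in CT, ASR, DSR and AS rats, with 1 point per rat, circles for Grp7 and triangles for Grp8 rats, and the mean ± SD at the right of each group. Gfap and S100b are highest in AS rats and mostly low in DSR rats, Slc1a2 is highest in DSR rats, and Slc1a3 is level across the groups.

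Whether the 4 groups differed at all was asked first, with edgeR's quasi-likelihood test. Of the 4 genes, 3 had an unadjusted p under 0.05 (0.021 for Slc1a2, 0.0278 for Gfap and 0.0281 for S100b), against 15.6% of all genes tested, and the value for Slc1a3 was 0.355. After Benjamini-Hochberg adjustment over the 16275 genes, 0 of the 4 genes and 0% of all genes passed 0.05, with adjusted p-values of 0.273 for Slc1a2, 0.285 for Gfap, 0.285 for S100b and 0.62 for Slc1a3. The same holds in each of the 6 comparisons below, where 0 of the 4 genes and 0% of all genes had an adjusted p under 0.05 in this fit.

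DSR vs AS contrasts rats that stopped suppressing METH intake in the second footshock phase with rats that suppressed it again, and it gave the largest differences in Gfap and S100b. The log2 fold change of Gfap was -0.82 (standard error 0.26, 95% confidence interval from -1.36 to -0.28), or 0.567 of the AS level. S100b was lower as well, at -0.30 (standard error 0.10, interval from -0.50 to -0.10). Slc1a2 was higher, at 0.34 (standard error 0.11, interval from 0.11 to 0.57), or 1.27-fold. Slc1a3 differed by 0.03 (interval from -0.10 to 0.15). The filament and calcium-binding genes and the transporter Slc1a2 thus lay on opposite sides, and the median over the 4 genes was -0.14, against -0.01 over all genes. Of the 4 genes, 3 had an unadjusted p under 0.05 in edgeR's test (0.00475 for Gfap, 0.00475 for S100b and 0.0058 for Slc1a2), against a background of 25.3% of all genes in this comparison. Between 4.53% and 5.31% of all genes had a smaller p than these 3 genes. The adjusted p-values of edgeR's test were 0.105, 0.105, 0.108 and 0.825 for Gfap, S100b, Slc1a2 and Slc1a3.

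The call in DSR vs AS depended on the test and on 1 rat. DESeq2 on all 4 groups gave an adjusted p of 0.0462 for S100b, 0.0588 for Gfap and 0.0534 for Slc1a2, so that 1 of the 4 genes passed, against 5.17% of all genes. With DESeq2 fitted to DSR and AS rats alone, Gfap (adjusted p = 0.0485), S100b (0.0192) and Slc1a2 (0.047) passed, against 11.7% of all genes. Without DSR rat Grp8-L9, the DSR rat with the highest Gfap and S100b, edgeR's adjusted p was 0.0271 for Gfap, 0.0316 for S100b and 0.0453 for Slc1a2, against 11.9% of all genes, and the log2 fold changes were -1.11, -0.36 and 0.38. Without DSR rat Grp7-R7, which had the lowest Gfap and the highest Slc1a2, they were -0.67, -0.25 and 0.25, with adjusted p-values of 0.313, 0.313 and 0.327. Without AS rat Grp7-R1, with the high mitochondrial share, they were -0.84, -0.27 and 0.43.

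Within the codes, the 2 values of Slc1a2 in DSR vs AS were close, and those of Gfap and S100b lay further apart. Slc1a2 was higher in DSR rats by 0.39 among Grp7 rats (interval from 0.03 to 0.74) and by 0.40 among Grp8 rats (interval from 0.11 to 0.68). Gfap was at -1.54 among Grp7 rats (interval from -2.15 to -0.93) and at -0.23 among Grp8 rats (interval from -1.05 to 0.59). S100b was at -0.47 (interval from -0.70 to -0.23) and -0.08 (interval from -0.46 to 0.29). For Gfap and S100b the difference was thus larger than its error among the Grp7 rats, 2 DSR and 4 AS, and not among the Grp8 rats, 3 DSR and 2 AS. Slc1a3 was at -0.05 among Grp7 and 0.14 among Grp8 rats. For each of the 4 genes the intervals of the 2 codes overlapped, and a difference between the codes themselves was not tested.

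AS vs CT contrasts METH rats that suppressed their intake under footshock with saline rats. Gfap was at 1.44 times the CT level in AS rats (log2 fold change 0.52, standard error 0.25, 95% interval from 0.01 to 1.03) and S100b at 1.15 times (log2 fold change 0.21, standard error 0.09, interval from 0.02 to 0.39). For the transporters the log2 fold changes were -0.01 for Slc1a2 (interval from -0.24 to 0.21) and 0.05 for Slc1a3 (interval from -0.07 to 0.17). These intervals overlap those of Gfap and S100b, and a difference between the genes was not tested. Of the 4 genes, 2 had an unadjusted p under 0.05 in edgeR's test (Gfap 0.0447, S100b 0.0343), against 21.4% of all genes. The adjusted p-values were 0.222 and 0.199. In CT, 4 of 6 rats had less Gfap than every AS rat, and the CT rats Grp7-R5 and Grp8-R11 lay within the AS range. Among Grp7 rats Gfap was at 0.58 (interval from 0.12 to 1.04) and S100b at 0.25 (interval from 0.07 to 0.44). Among Grp8 rats, 2 AS and 2 CT, Gfap was at 0.37 (interval from -0.54 to 1.28) and S100b at 0.09 (interval from -0.32 to 0.50). Without CT rat Grp7-R5 the log2 fold change of Gfap was 0.68, and without CT rat Grp8-L11, the CT rat with the lowest Gfap, S100b and Slc1a3, it was 0.38 and that of S100b 0.13. The median over the 4 genes was 0.13, against 0.02 over all genes.

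DSR vs CT gave 1 of the 4 genes an unadjusted p under 0.05, against 4.63% of all genes. That gene was Slc1a2, at 1.25 times the CT level (log2 fold change 0.33, standard error 0.11, interval from 0.09 to 0.56), for which edgeR's unadjusted p was 0.00788 and the adjusted p 0.982. Only 0.602% of all genes had a smaller unadjusted p in this comparison. Slc1a2 was higher in DSR rats by 0.45 among Grp7 rats and by 0.21 among Grp8 rats, and by 0.22 without DSR rat Grp7-R7. Gfap was at -0.30 with a wide interval, from -0.83 to 0.24, and had opposite signs in the codes (-0.96 among Grp7 and 0.14 among Grp8 rats). It was at -0.60 without DSR rat Grp8-L9, -0.13 without CT rat Grp7-R5 and -0.15 without DSR rat Grp7-R7. S100b was at -0.10 (interval from -0.29 to 0.10), with values from -0.16 without DSR rat Grp8-L9 to -0.05 without CT rat Grp8-R11, and Slc1a3 at 0.08 (interval from -0.05 to 0.21). The median over the 4 genes was -0.01, against 0.00 over all genes.

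ASR rats were compared with each of the other groups in turn. In ASR vs CT the log2 fold changes were 0.04 for Gfap (interval from -0.47 to 0.55), 0.02 for S100b (interval from -0.17 to 0.21), 0.08 for Slc1a2 (interval from -0.14 to 0.30) and -0.02 for Slc1a3 (interval from -0.14 to 0.10), and 0 of the 4 genes had an unadjusted p under 0.05, against 4.92% of all genes. The widths of these intervals were unequal, since that of Gfap reached up to 1.46-fold and that of Slc1a3 up to 1.07-fold. In ASR vs AS, Gfap was at -0.48 (interval from -0.99 to 0.03) and S100b at -0.19 (interval from -0.38 to just below 0), Slc1a2 at 0.10 and Slc1a3 at -0.07. Of the 4 genes, 1 had an unadjusted p under 0.05 there, S100b by a narrow margin, against 8.65% of all genes, and its adjusted p in edgeR's test was 0.573. The unadjusted p of Gfap was 0.0621, and the log2 fold changes of Gfap and S100b were -0.43 and -0.20 among Grp7 and -0.39 and -0.09 among Grp8 rats. In ASR vs DSR, Slc1a2 was at -0.25 (interval from -0.48 to -0.01) and was the 1 gene of 4 with an unadjusted p under 0.05 (0.0386 in edgeR's test, adjusted p = 0.846), against 4.29% of all genes. This value was -0.14 without DSR rat Grp7-R7, and it was -0.47 among Grp7 and -0.06 among Grp8 rats. Slc1a2 in ASR vs AS was at -0.09 among Grp7 and 0.34 among Grp8 rats. Gfap in ASR vs DSR was at 0.34 (interval from -0.20 to 0.87), with 1.11 among Grp7 and -0.16 among Grp8 rats. The medians over the 4 genes were 0.03, -0.13 and 0.01 for ASR rats against CT, AS and DSR rats in turn, and 0.00, -0.01 and 0.00 over all genes. The AS rats enter 3 of the 6 comparisons and the CT rats 3, so the values in these comparisons are not independent of one another.

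**Figure D3:**
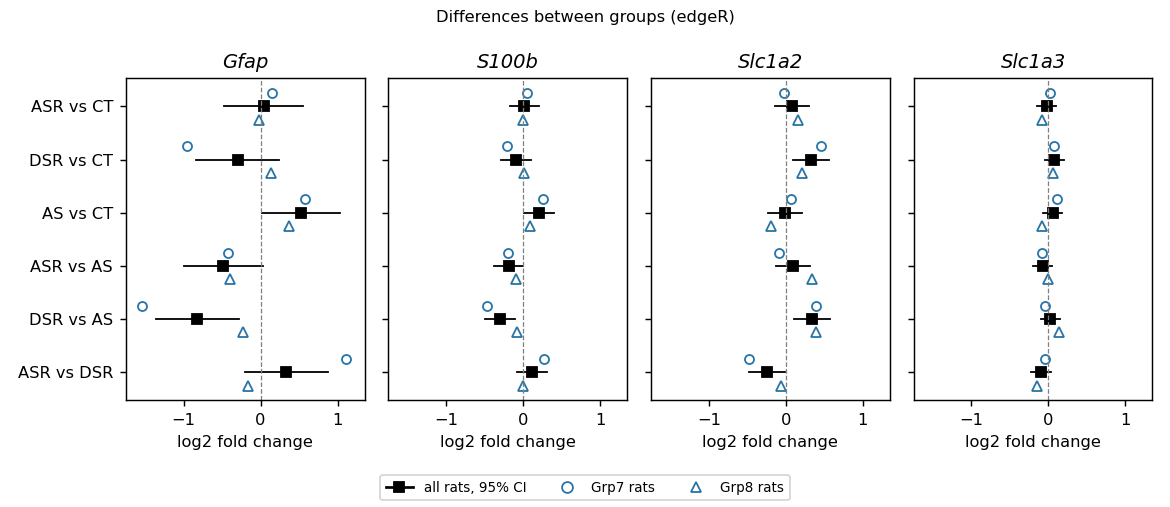
Log2 fold changes of the 4 genes (horizontal axes) in the 6 comparisons (rows), with black squares and 95% confidence intervals from edgeR for all rats, open circles for Grp7 rats and open triangles for Grp8 rats. For Gfap in DSR vs AS the circle (-1.54) and the triangle (-0.23) lie far apart, whereas for Slc1a2 they nearly coincide (0.39 and 0.40).

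Whether the 4 genes moved together from rat to rat was then examined on log2 CPM over the 23 rats, for 6 pairs. Gfap and S100b were tightly related (Pearson's r = 0.89, Spearman's rho = 0.90, permutation p = 1e-05 for each, the smallest that 100000 permutations can give, adjusted p = 6e-05 over the 6 pairs). The relation was there within both codes (r = 0.87 in 13 Grp7 and 0.94 in 10 Grp8 rats), in the residuals from the group means (r = 0.84) and without the 2 rats farthest from the median Gfap (r = 0.84). Rats with more of the filament transcript thus had more of the calcium-binding one inside the groups as well. By their correlation with Gfap over these rats, S100b ranked 184th of the 16274 other genes, and by that with S100b, Gfap ranked 61st. Such correlations were common, with 927 genes at r of 0.8 or more with Gfap and 327 at -0.8 or less, so the rank is a description of the pair.

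The transporters were related to the other genes less firmly. Slc1a2 was inversely related to Gfap (r = -0.50, permutation p = 0.0146, adjusted p = 0.0292, rho = -0.44, permutation p = 0.0367, adjusted p = 0.0995). That relation was at -0.66 in Grp7 rats, -0.09 in Grp8 rats, -0.33 in the residuals from the group means and -0.35 without the 2 rats farthest from the median Gfap (permutation p = 0.122). The sign was negative in each of these settings. The permutation p was above 0.05 without those 2 rats, among the Grp8 rats (0.808) and in the residuals (0.123). A difference between the settings was not tested. S100b and Slc1a3 were positively related (r = 0.50, permutation p = 0.0138, adjusted p = 0.0292, rho = 0.38, permutation p = 0.0748, adjusted p = 0.112). For this pair r was 0.36 in Grp7 rats (permutation p = 0.235) and 0.68 in Grp8 rats (permutation p = 0.0299, adjusted p = 0.0735). It was 0.42 (permutation p = 0.0597) without the 2 rats farthest from the median S100b. In the residuals from the group means r was 0.68 (permutation p = 0.00035, adjusted p = 0.00105) and rho 0.66 (permutation p = 0.00097, adjusted p = 0.00291). The 2 transporters had r = 0.41 (permutation p = 0.0522, adjusted p = 0.0783, rho = 0.42, permutation p = 0.0497, adjusted p = 0.0995), and 0.54 without the 2 rats farthest from the median Slc1a2 (permutation p = 0.0104, adjusted p = 0.0312). Their r was 0.54 in Grp7 rats, 0.31 in Grp8 rats and 0.38 in the residuals. For Gfap with Slc1a3 r was 0.30 (permutation p = 0.159, adjusted p = 0.159, rho = 0.20, permutation p = 0.359, adjusted p = 0.359). It was 0.04 in Grp7 rats, 0.67 in Grp8 rats and 0.30 without the 2 rats farthest from the median Gfap. In the residuals from the group means it was 0.45 (permutation p = 0.0327, adjusted p = 0.0653), with a rho of 0.49 that passed the correction (permutation p = 0.0184, adjusted p = 0.0369). For S100b with Slc1a2 r was -0.33 (permutation p = 0.119, adjusted p = 0.142, rho = -0.32, permutation p = 0.134, adjusted p = 0.161), with -0.44 in Grp7 rats, -0.08 in Grp8 rats, -0.11 in the residuals and -0.42 without the 2 rats farthest from the median S100b. Among the genes, only 4 had r of 0.8 or more with Slc1a2 and 0 with Slc1a3.

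**Figure D4:**
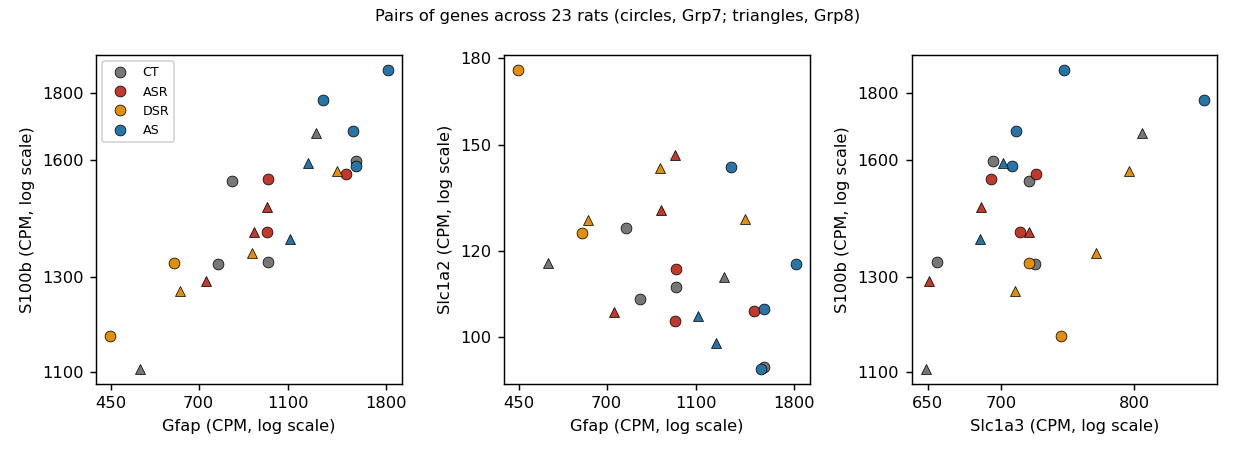
CPM of pairs of genes on log axes, with 1 point per rat, coloured by group, circles for Grp7 and triangles for Grp8 rats. S100b follows Gfap over the whole range (r = 0.89), Slc1a2 declines with Gfap in a loose cloud in which DSR rat Grp7-R7 is at the upper left (r = -0.50), and S100b and Slc1a3 are loosely related (r = 0.50).

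The balance of the 2 transporters was compared within each library, as the ratio of Slc1a2 to Slc1a3 counts per exonic base, which depends on no scaling between libraries. The 5 DSR rats had ratios of 0.728, 0.781, 0.813, 0.838 and 1.07. AS rats ranged from 0.594 to 0.754 with a median of 0.683, CT rats from 0.611 to 0.814 with a median of 0.723, and ASR rats from 0.655 to 0.967 with a median of 0.742. The DSR and AS groups overlapped by a single value on each side, AS rat Grp7-R1 (0.754) and DSR rat Grp8-L9 (0.728). In DSR vs AS the ratio was 1.24 times as high, a log2 difference of 0.31 (standard error 0.11, two-sided exact permutation test, p = 0.00866, Benjamini-Hochberg adjusted p = 0.0519 over the 6 comparisons), where the smallest p the group sizes allow is 0.00433. The log2 difference was 0.24 in DSR vs CT (exact permutation p = 0.0779, adjusted p = 0.234), 0.17 in ASR vs AS (p = 0.117, adjusted p = 0.234), -0.15 in ASR vs DSR (p = 0.29, adjusted p = 0.435), 0.09 in ASR vs CT (p = 0.446, adjusted p = 0.446) and -0.08 in AS vs CT (p = 0.381, adjusted p = 0.446). Leaving out 1 rat moved the difference in DSR vs AS from 0.23 (without DSR rat Grp7-R7, exact permutation test, adjusted p = 0.114) to 0.36 (without DSR rat Grp8-L9, adjusted p = 0.0571). Of these 11 omissions, only that of AS rat Grp7-R1 took it past an adjusted p of 0.05 (0.35, exact permutation test, adjusted p = 0.0476). Leaving out a rat raises the smallest p that the group sizes allow. Whether an omission passed 0.05 is therefore no measure of that rat's influence. Without DSR rat Grp7-R7, DSR vs CT was at 0.15 and ASR vs DSR at -0.06, and without ASR rat Grp8-R8, ASR vs AS was at 0.10 and ASR vs CT at 0.02. AS vs CT lay between -0.12 without CT rat Grp7-R5 and -0.04 without CT rat Grp8-L11. Among Grp7 rats alone the difference in DSR vs AS was 0.42 and among Grp8 rats 0.26, in groups too small to reach 0.05.

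**Figure D5:**
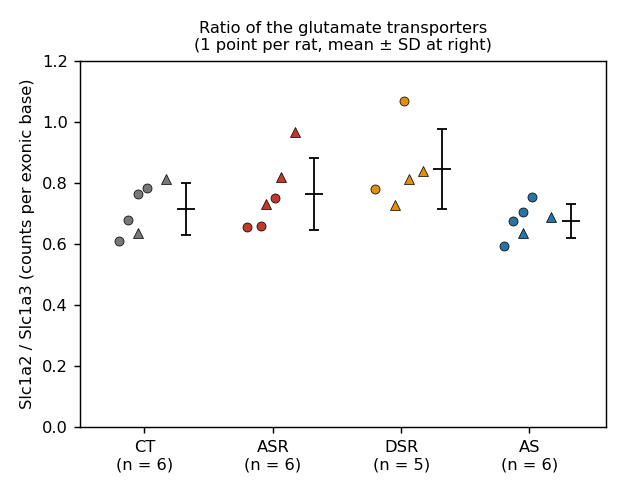
Ratio of Slc1a2 to Slc1a3 in counts per exonic base (vertical axis, from 0) in CT, ASR, DSR and AS rats, with 1 point per rat, circles for Grp7 and triangles for Grp8 rats, and the mean ± SD at the right of each group. DSR rats lie from 0.728 to 1.07 and AS rats from 0.594 to 0.754.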

How the data were processed

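Libraries were made from poly(A) RNA with the NEBNext Ultra II kit and sequenced as read pairs, and whether the counting used strand is not given in the sources used here. Per the submitters' processing notes, reads were handled with bcl2fastq 2.17, Trimmomatic 0.36, STAR 2.5.2b and featureCounts of Subread 1.5.2, on Rnor6.0 with Ensembl genes. The values the authors deposited are raw counts per gene and library, with no normalization.

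The counts served here to compute CPM with TMM factors, TPM and edgeR 4.0.16 quasi-likelihood tests (R 4.3.3), with the 4 groups in 1 fit (19 residual degrees of freedom) and the 6 comparisons as contrasts. The filterByExpr function (minimum count 10, minimum total 15) left 16275 genes, all 4 members among them. Log2 CPM used a prior count of 2. Alternatives were RLE factors, library totals alone, no filter, the Grp code as a covariate or each code alone, edgeR on the 2 groups compared, DESeq2 1.42.0 and each rat left out. The study itself used DESeq2. The members and the alternatives were chosen with earlier results of these data known. Only the members are named, since the reference table pairs 0 of its 47357 rows with an Ensembl identifier, and lists of other glutamate and astrocyte genes were not analysed here. Chi-square per gene between the libraries of a group was 6.60 or more in all 55 pairs, so none were counted as duplicates.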

Additional observations from a re-analysis of the deposited data

Results flagged for a closer look

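In each of the 4 groups, the CPM of the 4 genes and the ratio of Slc1a2 to Slc1a3 were searched for a single rat set apart by a wide gap. Of the 20 sets of values, 2 held one, where chance gives about 1 in 20.

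Gfap was at 1474 CPM in ASR rat Grp7-R4, against 726 to 995 CPM in the other 5 ASR rats. Without this rat the log2 fold change of Gfap was -0.10 in ASR vs CT (0.04 with it) and -0.62 in ASR vs AS (-0.48 with it).

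Slc1a3 was at 858 CPM in AS rat Grp7-R1, against 685 to 745 CPM in the other 5 AS rats. This library had 19.6% of its counts on mitochondrial genes and the lowest TMM factor, 0.930. In TPM, which depends on no TMM factor, Slc1a3 was at 328 in this rat and from 313 to 328 in the AS rats. The sum behind TPM includes the mitochondrial genes, so a high mitochondrial share lowers the TPM of the other genes. What set this rat apart in CPM was not tested. Without the rat the log2 fold change of Slc1a3 in AS vs CT was -0.01 (0.05 with it).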

How the results depend on the processing

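Under the alternatives other than leaving out a rat, 201 of 216 log2 fold changes stayed on the same side of 0 and of an adjusted p of 0.05, 4 passed it and 11 changed sign, all 11 within 1 code. The 4 were Gfap (-0.82), S100b (-0.30) and Slc1a2 (0.35) in DSR vs AS with DESeq2 on the 2 groups (3 genes called) and S100b (-0.30) with DESeq2 on all groups (1 gene called), against 0 in edgeR. Among Grp7 rats alone the sign turned in ASR vs CT for Slc1a2 (-0.0209) and Slc1a3 (0.024), in AS vs CT for Slc1a2 (0.0643), in ASR vs AS for Slc1a2 (-0.0852), in DSR vs AS for Slc1a3 (-0.0453) and for the transporter ratio in ASR vs CT (-0.0400). Among Grp8 rats alone it turned in ASR vs CT for Gfap (-0.0212), in DSR vs CT for Gfap (0.14) and S100b (0.00692), in AS vs CT for Slc1a3 (-0.0793), in ASR vs DSR for Gfap (-0.16) and S100b (-0.00632), and for the ratio in ASR vs DSR (0.076). Leaving out 1 rat moved ASR vs CT from -0.10 to 0.21 for Gfap, from -0.0500 to 0.061 for S100b and from -0.0479 to 0.0131 for Slc1a3, and AS vs CT from -0.11 to 0.0109 for Slc1a2 and from -0.00677 to 0.0737 for Slc1a3. In DSR vs AS it moved Gfap from -1.11 to -0.67, S100b from -0.36 to -0.25, Slc1a2 from 0.25 to 0.43 and the number of genes called from 0 to 3. The causes were not tested. Within a code fewer rats enter, with only 2 in some groups. No paired analysis was possible because no rat code is shared between groups.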
